A study of Mus musculus with 6 samples.

Results

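Neto1, Neto2, Nptx1, Nptx2 and Nptxr are 5 genes whose proteins are best known as partners of glutamate receptors. They were followed in bulk RNA-seq of intestinal fibroblasts from newborn mice that lack eosinophils. They were picked by gene name, with earlier results on the same libraries known, out of 15238 genes in the deposited gene table, and all 5 are in that table. Neto1 and Nptx2 stood out in the same comparison of genotypes that is described here. Their differences between genotypes, and those of the other 3 members, are therefore given as a description, with no test.

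The fibroblasts came from DdblGata1 pups (3 libraries, replicates 4, 9 and 10) and from wild-type pups (3 libraries, replicates 1, 3 and 4). All pups were of the Balb/c strain and 9 days old. In DdblGata1 mice a pair of GATA sites in the promoter of Gata1, which encodes a blood cell transcription factor, is missing from the germline, and eosinophils do not form. The labels name no Cre, no inducible allele and no agent in either group. The intestine was stripped of epithelium with EDTA and digested, and cells that carried podoplanin but not CD45 (leukocytes), EpCAM (epithelium) or CD31 (endothelium) were sorted. Judging by its title, the series asks how eosinophils bear on postnatal smooth muscle differentiation in the villi. Whether the 3 libraries of a group are from 3 different pups is not stated in the labels, so p-values measure only the spread between these libraries.

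Neto1 and Neto2 are membrane proteins with extracellular CUB domains. In neurons they bind kainate receptors as auxiliary subunits and slow their gating, and Neto1 also binds NMDA receptors. Nptx1 and Nptx2, the neuronal pentraxins, are secreted into the synaptic cleft, where they form complexes that cluster AMPA receptors. Nptxr, the neuronal pentraxin receptor, is a membrane-anchored pentraxin that joins the same complexes. Kainate, AMPA and NMDA receptors are the ion channels opened by glutamate. This biology is known mainly from the brain.

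Total estimated counts over the gene table were 28110454 to 30993472 in DdblGata1 libraries and 30210644 to 31210800 in wild-type libraries. Gata1 had an estimated count of 0 in each DdblGata1 library, against 1, 0 and 0 in wild-type replicates 1, 3 and 4, so it gave no check of the genotype. The 7 fibroblast markers examined were all measured, with a summed level of 54997 to 67211 TPM in DdblGata1 libraries and 45972 to 67688 TPM in wild-type libraries. TPM is a level corrected for transcript length and scaled to the same total in every library. Pdpn, the gene of the sorted surface protein, ranged from 46.7 to 61.1 TPM in DdblGata1 libraries and from 26.2 to 45.8 TPM in wild-type libraries. Of 7 eosinophil markers only Ccr3 reached the table, and Epx, the eosinophil peroxidase, had 0 counts in all 6 libraries. Ccr3 was low, with 7, 5 and 8 counts in DdblGata1 replicates 4, 9 and 10, against 23, 32 and 11 in wild-type replicates 1, 3 and 4. Its log2 fold change was -1.65 ± 0.6 (SE; edgeR adjusted p = 0.452), and 7.34% of all genes had groups apart in that direction. The other 6 markers had at most 26 estimated counts in any library. Wild-type replicate 1 stood apart in its epithelial markers, whose summed level was 417 TPM there, against 97.9 to 126 TPM in DdblGata1 libraries and 88.1 to 90.2 TPM in the other wild-type libraries. Member values without that library are given beside the results.

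The sequences of Nptx1 and Nptx2 are shown first because these related genes are set against each other below, and reads from one could in principle be credited to the other. The stretch of 90 bases where their coding sequences are most alike lies in exon 3 of each gene, as read from GRCm38 with GENCODE M21. It spans chr5:144553555-144553644 (plus strand, coding bases 793 to 882) in Nptx2 and chr11:119544592-119544681 (minus strand, coding bases 808 to 897) in Nptx1. Capitals mark the bases that differ.
Nptx2: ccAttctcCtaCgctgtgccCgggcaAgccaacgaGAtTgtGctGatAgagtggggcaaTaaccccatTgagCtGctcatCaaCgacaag
Nptx1: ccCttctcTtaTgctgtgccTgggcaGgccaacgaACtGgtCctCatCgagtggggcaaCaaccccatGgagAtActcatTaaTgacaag
Even here 17 of the 90 bases differed and the longest identical run was 11 bases. Over the whole coding sequences the longest identical run was 16 bases, and no pair among the 5 members shared a coding word of 31 bases. Nptxr was the exception towards other genes: 842 of its 1449 coding words (58.1%) also occur in Npcd, a gene that overlaps it. The 2 Npcd transcripts had 0 to 46.8 estimated counts per library, so the level of Nptxr is uncertain by the reads shared between these genes. Neto1 was counted on a transcript model of 3531 bases, where GENCODE M21 gives 8352 bases for it, and reads from the remainder were not counted.

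Neto1 (ENSMUSG00000050321, chr18:86394952-86506718, plus strand) had 482, 341 and 701 estimated counts in DdblGata1 replicates 4, 9 and 10, against 22, 94 and 58 in wild-type replicates 1, 3 and 4. Scaled to the library size (TMM-scaled CPM), these were 17.7, 11.3 and 22.6 CPM in DdblGata1 libraries and 0.671, 3.24 and 1.9 CPM in wild-type libraries. Every DdblGata1 library lay above every wild-type library, and the lowest DdblGata1 value was 3.48 times the highest wild-type value. The means were 17.2 ± 5.69 CPM in DdblGata1 and 1.94 ± 1.29 CPM in wild-type libraries (SD, n = 3 each), a ratio of 8.88. Fitted with edgeR, the difference DdblGata1 minus wild-type was 3.15 ± 0.54 (SE) on the log2 scale. Of all 15238 genes, 10 (0.0656%) had a log2 fold change of at least 3.0. The wild-type libraries were themselves spread over 4.83-fold and the DdblGata1 libraries over 2.01-fold. Without wild-type replicate 3, which had the highest Neto1 level of its group, the log2 fold change was 3.74, and without wild-type replicate 1 it was 2.72. In bulk RNA, more or fewer cells that express a gene and more or less RNA per cell cannot be told apart.

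Neto2 (ENSMUSG00000036902, chr8:85636588-85700924, minus strand), the close relative of Neto1, had 11.3, 14.4 and 10.4 CPM in DdblGata1 libraries, against 9.82, 13.3 and 12.1 CPM in wild-type libraries. The groups overlapped, with means of 12 ± 2.11 CPM in DdblGata1 and 11.7 ± 1.76 CPM in wild-type libraries (SD, n = 3 each) and a log2 fold change of 0.04 ± 0.22 (SE). Since the 2 genes are compared here, the scale is TPM. Neto1 was at 9.72, 6.16 and 11.8 TPM in DdblGata1 libraries, against 0.334, 1.58 and 0.997 TPM in wild-type libraries. Neto2 was at 5.5, 7.02 and 4.86 TPM in DdblGata1 libraries, against 4.43, 5.8 and 5.75 TPM in wild-type libraries. Neto1 thus made up 63.9, 46.7 and 70.9% of the summed level of both genes in DdblGata1 libraries, against 7.01, 21.5 and 14.8% in wild-type libraries. The summed level was 15.2, 13.2 and 16.7 TPM in DdblGata1 libraries and 4.77, 7.38 and 6.75 TPM in wild-type libraries. Neto1 was above Neto2 in DdblGata1 replicates 4 and 10 and below it in DdblGata1 replicate 9 and in all 3 wild-type libraries.

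Nptx2 (ENSMUSG00000059991, chr5:144545902-144557478, plus strand) had 330, 322 and 293 estimated counts in DdblGata1 libraries, against 723, 806 and 543 in wild-type libraries. On the CPM scale these were 12.1, 10.7 and 9.46 in DdblGata1 libraries and 22.1, 27.8 and 17.8 in wild-type libraries. Every DdblGata1 library lay below every wild-type library, the lowest wild-type value being 1.47 times the highest DdblGata1 value. The means were 10.7 ± 1.32 CPM in DdblGata1 and 22.5 ± 5.03 CPM in wild-type libraries (SD, n = 3 each), so the wild-type mean was 2.1 times the DdblGata1 mean. The log2 fold change was -1.07 ± 0.22 (SE), and 412 of all genes (2.7%) had one of -1 or lower. The DdblGata1 libraries were close together, within 1.28-fold. Without wild-type replicate 1 the log2 fold change of Nptx2 was -1.11.

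Nptx1 (ENSMUSG00000025582, chr11:119538719-119547753, minus strand), the other secreted neuronal pentraxin, had 4.4, 9.23 and 9.04 CPM in DdblGata1 libraries, against 16.1, 10.9 and 7.53 CPM in wild-type libraries. The groups overlapped, since wild-type replicate 4 was below DdblGata1 replicates 9 and 10. The means were 7.56 ± 2.74 CPM in DdblGata1 and 11.5 ± 4.31 CPM in wild-type libraries (SD, n = 3 each), with a log2 fold change of -0.60 ± 0.37 (SE). The value of Nptx1 rested on the lowest and the highest library: it was -0.33 when DdblGata1 replicate 4 was left out and -0.31 when wild-type replicate 1 was.

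Nptxr (ENSMUSG00000022421, chr15:79786351-79804766, minus strand) had 35.4, 36.8 and 33.6 CPM in DdblGata1 libraries, against 20.9, 41.2 and 34.4 CPM in wild-type libraries. The DdblGata1 values all fell inside the wild-type range, with means of 35.3 ± 1.57 CPM in DdblGata1 and 32.1 ± 10.3 CPM in wild-type libraries (SD, n = 3 each). The log2 fold change was 0.14 ± 0.24 (SE), and -0.12 without wild-type replicate 1, its lowest library. Neto2 changed sign in the same way, at -0.10 without that library. Of the 5 members, Neto1 and Nptx2 were the 2 whose groups did not overlap, Neto1 higher and Nptx2 lower in DdblGata1. Over all genes 16.3% had groups that did not overlap, 8.98% higher and 7.34% lower in DdblGata1. Since this contrast chose the members, nothing is read from that count.

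**Figure D1:**
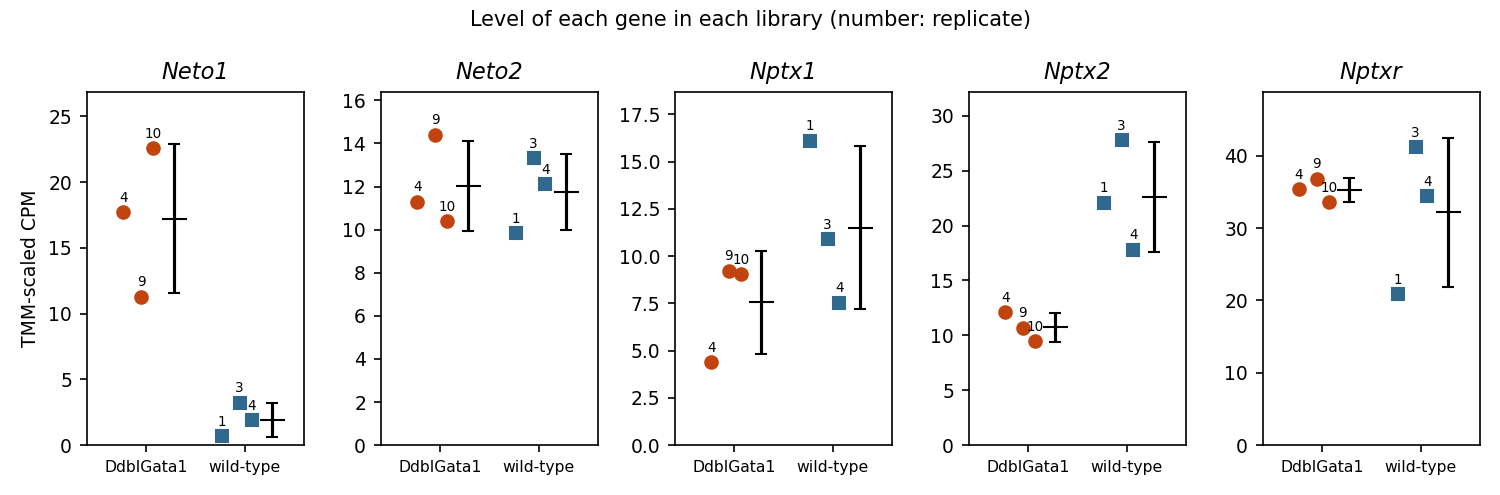
TMM-scaled CPM of each member in each library, with replicate numbers above the points, DdblGata1 as circles and wild-type as squares. Bars show the mean and SD of 3 libraries. Each axis starts at 0. The groups are apart for Neto1 (11.3 to 22.6 CPM in DdblGata1, 0.671 to 3.24 CPM in wild-type) and for Nptx2 (9.46 to 12.1 CPM in DdblGata1, 17.8 to 27.8 CPM in wild-type), and overlap for the other 3 genes.

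**Figure D2:**
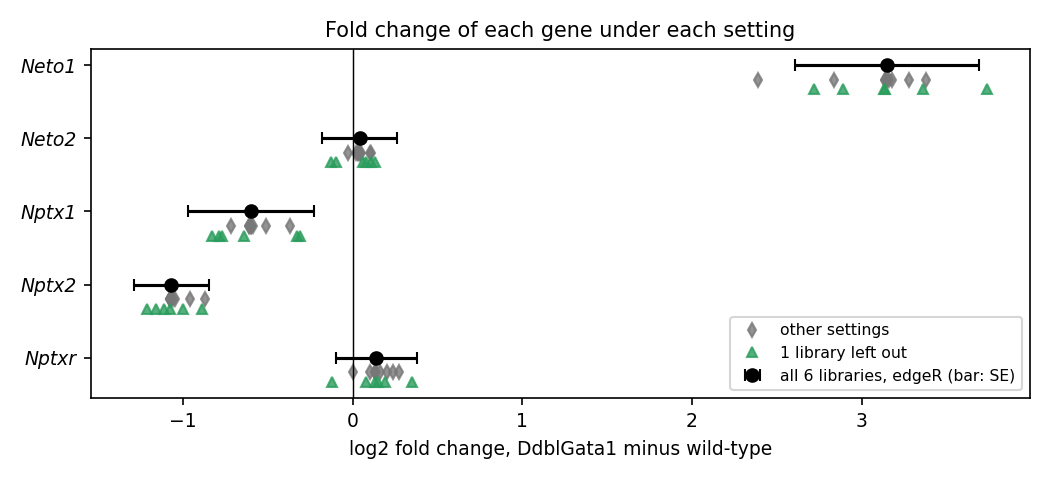
Fitted log2 fold change, DdblGata1 minus wild-type, of each member. Black circles with SE bars are the edgeR values over all 6 libraries, diamonds are other tools, scalings, filters and covariates, and triangles leave out 1 library each. Over these settings Neto1 ranged from 2.39 to 3.74 and Nptx2 from -1.21 to -0.87, Nptx1 stayed below 0, and Neto2 and Nptxr lay on both sides of 0.

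On the TPM scale, which allows genes to be compared, the members were modestly expressed, at percentiles 19.4 (Nptx1), 29.3 (Neto1), 30.8 (Neto2), 42.0 (Nptx2) and 42.7 (Nptxr) of the mean TPM of all genes in the table. In DdblGata1 libraries the order of mean levels was Nptxr (11 ± 0.749 TPM), Neto1 (9.24 ± 2.87 TPM), Nptx2 (6.63 ± 0.98 TPM), Neto2 (5.79 ± 1.11 TPM) and Nptx1 (2.1 ± 0.739 TPM; SD, n = 3 each). Neighbours among the first 4 overlapped in range and did not differ beyond their spread, while Nptx1 lay below the range of Neto2. In wild-type libraries the order was Nptx2 (13.0 ± 2.39 TPM), Nptxr (9.41 ± 2.93 TPM), Neto2 (5.33 ± 0.774 TPM), Nptx1 (3.01 ± 1.1 TPM) and Neto1 (0.971 ± 0.625 TPM; SD, n = 3 each). Only Nptx2 and Nptxr overlapped in range there. By mean level Neto1 was thus the second of the 5 in DdblGata1 and the last in wild-type libraries. Its place in DdblGata1 varied between libraries. In replicate 9 it was at 6.16 TPM, below Neto2 at 7.02 TPM. In replicate 10 it was at 11.8 TPM, above Nptxr at 10.1 TPM.

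Among the pentraxins, Nptx2 was at 7.6, 6.64 and 5.64 TPM in DdblGata1 libraries, against 12.8, 15.6 and 10.8 TPM in wild-type libraries. Nptxr was at 11.2, 11.6 and 10.1 TPM in DdblGata1 libraries, against 6.09, 11.6 and 10.5 TPM in wild-type libraries. The secreted Nptx2 was therefore below its membrane-anchored partner in every DdblGata1 library and above it in every wild-type library. In wild-type replicate 4 the 2 were close, at 10.8 and 10.5 TPM, and the level of Nptxr is uncertain by reads shared with Npcd. Nptx1 and Nptx2 together were at 8.85, 9.25 and 8.08 TPM in DdblGata1 libraries, against 17.0, 18.3 and 12.9 TPM in wild-type libraries. With Nptxr added the sums were 20.1, 20.8 and 18.2 TPM in DdblGata1 libraries and 23.1, 29.9 and 23.4 TPM in wild-type libraries. The ratio of Nptx2 to Nptx1 varied without order between the genotypes, at 6.08, 2.55 and 2.31 in DdblGata1 libraries and 3.03, 5.66 and 5.22 in wild-type libraries.

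**Figure D3:**
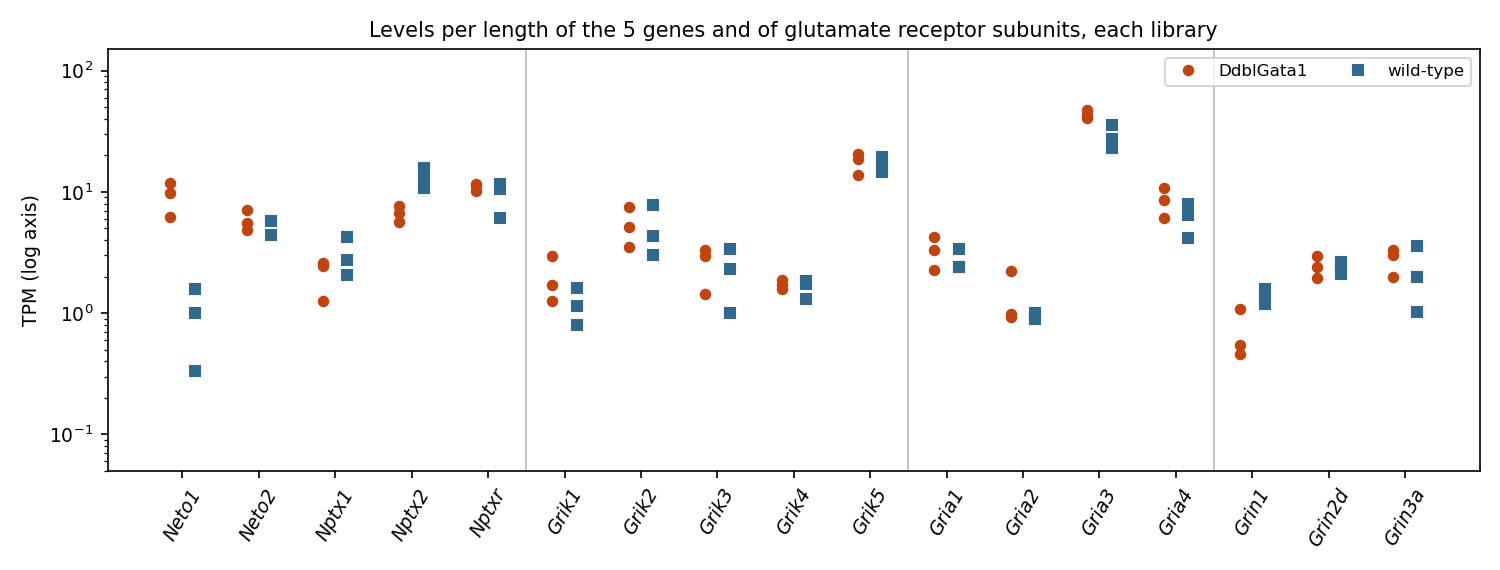
TPM on a log axis of the 5 members, the kainate receptor subunits (Grik), the AMPA receptor subunits (Gria) and the NMDA receptor subunits (Grin) in each library, DdblGata1 as circles left of wild-type as squares. Gria3 is the most abundant of these genes, at 40.5 to 47.4 TPM in DdblGata1 and 22.9 to 35.4 TPM in wild-type libraries. The widest gap between the genotypes is that of Neto1, which was chosen from this contrast.

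Transcript usage, the division of a gene's reads among its transcripts, was not what the members were chosen on and could be tested for Neto2 and Nptxr. Neto1, Nptx1 and Nptx2 each have 1 transcript in the index. The protein-coding Neto2-201 took 15.6, 55.4 and 25.5% of the Neto2 counts in DdblGata1 libraries, against 58.6, 51.1 and 47.0% in wild-type libraries. Neto2-203, also coding, took 63.8, 22.8 and 18.9% in DdblGata1 libraries, against 24.2, 29.5 and 34.1% in wild-type libraries. In DdblGata1 replicate 10 the noncoding Neto2-202 took 41.1%, and it had at most 0.33% in the other libraries. In these estimated shares the DdblGata1 libraries thus differed more among themselves than the wild-type libraries did. Nptxr-203 held 76.3 to 99.1% of the Nptxr counts in DdblGata1 libraries and 93.3 to 100% in wild-type libraries. Neither gene passed the test (edgeR's diffSpliceDGE, Simes adjusted p = 1 for each), which called 24 of 9448 genes (0.254%).

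The receptors and related proteins were examined next, since they were not used to choose the members. They were taken from 9 lists with 84 genes, of which 64 were in the gene table. The other 20 had at most 23 estimated counts in any library and were not tested. By edgeR's quasi-likelihood test 0 of the 64 passed an adjusted p of 0.05, as did 0 of all 15238 genes (0%). At an unadjusted p under 0.05, 7 were higher and 3 lower in DdblGata1 (15.6% of the 64), against 10.3% of all genes, 6.03% higher and 4.23% lower. DESeq2 called 214 of 14630 genes (1.46%) and 1 of the 64, Slc1a3. The median log2 fold change of the 64 was 0.02, with 35 above 0 and 29 below, and that of all genes was -0.01, with 49.3% above 0 and 50.7% below. The groups did not overlap for 12 of the 64 (18.8%), against the 16.3% of all genes given above.

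All 5 kainate receptor subunits, the receptors that Neto proteins bind, were measured and none passed the test. Their median log2 fold change was 0.02, with 4 above 0 and 1 below, and the groups overlapped for each of them. Grik5, a subunit that forms receptors only together with Grik1, Grik2 or Grik3, was the most abundant of them. It was at 18.6, 20.5 and 13.9 TPM in DdblGata1 libraries, against 14.6, 15.9 and 19.3 TPM in wild-type libraries (log2 fold change 0.01 ± 0.18 SE; edgeR adjusted p = 0.988). Grik2, a pore-forming subunit, was at 5.09, 7.48 and 3.52 TPM in DdblGata1 libraries, against 3.02, 4.32 and 7.73 TPM in wild-type libraries. Grik3 (log2 fold change 0.12 ± 0.44 SE) and Grik4 (-0.01 ± 0.29 SE) were near 0 as well. Grik1 had the largest value of the list, 0.68 ± 0.44 (SE; edgeR adjusted p = 0.59), at 1.69, 1.27 and 2.96 TPM in DdblGata1 libraries and 1.14, 0.803 and 1.61 TPM in wild-type libraries. Without wild-type replicate 4 the median of the list was 0.42. The summed level of kainate subunits was 23.7 to 33.8 TPM in DdblGata1 libraries and 21.6 to 33.3 TPM in wild-type libraries, so the ranges overlapped almost fully. Since Neto1 was chosen from this contrast, nothing is read from setting it against them.

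The AMPA receptor subunits, which neuronal pentraxins cluster, were all 4 measured, and none passed the test. All 4 had values above 0, with a median log2 fold change of 0.43, and of 0.26 without wild-type replicate 1. Gria3 was at 47.4, 43.2 and 40.5 TPM in DdblGata1 libraries, against 22.9, 27.3 and 35.4 TPM in wild-type libraries. Its groups did not overlap, and its log2 fold change was 0.54 ± 0.17 (SE; edgeR adjusted p = 0.423). Gria4 was at 10.8, 8.58 and 6.03 TPM in DdblGata1 libraries, against 4.13, 6.4 and 7.94 TPM in wild-type libraries, which overlap (0.37 ± 0.28 SE; edgeR adjusted p = 0.636). The log2 fold changes were 0.18 ± 0.27 (SE) for Gria1 and 0.48 ± 0.43 (SE) for Gria2, the subunit that keeps the channel from passing calcium. Both had overlapping groups. Gria2 was high only in DdblGata1 replicate 10, at 2.23 TPM, against 0.927 and 0.974 TPM in replicates 4 and 9. In wild-type libraries it was at 0.897 to 1.01 TPM. The summed level of the 4 subunits was 63.4, 56.1 and 51.0 TPM in DdblGata1 libraries, against 30.3, 37.0 and 47.7 TPM in wild-type libraries. Gria3 was the largest part of that sum.

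Of 9 NMDA and delta receptor subunits, 5 were in the table, and none passed the test (median log2 fold change -0.08). Grin1, the subunit that every NMDA receptor needs and a partner of Neto1 in neurons, was low. It was at 1.08, 0.462 and 0.544 TPM in DdblGata1 libraries, against 1.4, 1.18 and 1.57 TPM in wild-type libraries. The groups did not overlap, and the log2 fold change was -1.07 ± 0.4 (SE; edgeR adjusted p = 0.461). Grin2d (-0.08 ± 0.23), Grin3a (0.26 ± 0.41) and Grid1 (0.35 ± 0.5; log2 fold change ± SE) had overlapping groups. Grin2a, Grin2b, Grin2c and Grin3b were among the genes outside the table.

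Of 13 auxiliary subunits of AMPA receptors, 10 were in the table, 2 with values above 0 and 8 below (median log2 fold change -0.23), and none passed the test. Cacng7, a receptor-trafficking protein of the TARP family, was at 22.5 to 24.6 TPM in DdblGata1 libraries and 22.0 to 24.9 TPM in wild-type libraries (-0.08 ± 0.14 SE). Cnih2 (-0.94 ± 0.51) and Cacng4 (-0.56 ± 0.32; log2 fold change ± SE) were lower in value with overlapping groups. All 15 scaffold and trafficking genes were measured, 7 above 0 and 8 below (median -0.05), and none passed the test. The log2 fold changes were 0.43 ± 0.2 (SE; edgeR adjusted p = 0.502) for Dlg4, known as PSD-95, 0.38 ± 0.18 (SE; edgeR adjusted p = 0.501) for Dlg1 and -0.05 ± 0.16 (SE) for Homer3. Of 11 synaptic organisers of the C1q and cerebellin type, 7 were measured, 4 above 0 and 3 below (median 0.27), and none passed. Nrxn2 (0.27 ± 0.44) and C1ql1 (-0.61 ± 0.42; log2 fold change ± SE) overlapped between the groups. Groups were apart for 1 of the 10 auxiliary subunits, 2 of the 15 scaffold and trafficking genes and 1 of the 7 organisers. The share over all genes was 16.3%.

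Of 6 other proteins with a pentraxin domain, 3 were in the table, and none passed the test. Ptx3, a secreted pentraxin of innate immunity, was at 8.4, 12.9 and 15.7 TPM in DdblGata1 libraries, against 2.88, 5.55 and 6.55 TPM in wild-type libraries. Its groups did not overlap, with a log2 fold change of 1.23 ± 0.37 (SE; edgeR adjusted p = 0.416). Mptx1, the mucosal pentraxin, was at 33, 17.8 and 8.42 TPM in DdblGata1 libraries, against 83.0, 15.8 and 16.5 TPM in wild-type libraries (-1.06 ± 0.72 SE; edgeR adjusted p = 0.601). Its high value was in wild-type replicate 1, the library with the high epithelial markers, and the part of those cells in it was not tested. Ptx4 was low, at 0.22 to 0.41 TPM in DdblGata1 libraries and 0.411 to 0.681 TPM in wild-type libraries.

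Of 8 metabotropic glutamate receptors, which signal through G proteins, 3 were in the table, all above 0 in value, and none passed the test (median log2 fold change 1.26). Grm7 was at 1.92, 0.722 and 0.427 TPM in DdblGata1 libraries, against 0.0955, 0.138 and 0.312 TPM in wild-type libraries (2.39 ± 0.7 SE; edgeR adjusted p = 0.407). Grm3 (1.26 ± 0.55) also had groups apart, and Grm8 (0.24 ± 0.5; log2 fold change ± SE) did not. Of 13 genes of glutamate transport and metabolism, 12 were measured, 8 above 0 and 4 below, and none passed edgeR's test. Their median was 0.19, and it was -0.14 when DdblGata1 replicate 4 was left out and -0.08 when wild-type replicate 1 was. Groups were apart for 2 of the 12, Slc1a5 and Slc1a3, against 16.3% of all genes. The summed level of the 13 genes did not overlap, at 537 to 693 TPM in DdblGata1 libraries and 336 to 436 TPM in wild-type libraries. Slc1a5, a carrier of glutamine and other neutral amino acids, was at 163, 115 and 102 TPM in DdblGata1 libraries, against 61.3, 83.8 and 96.7 TPM in wild-type libraries (0.57 ± 0.22 SE; edgeR adjusted p = 0.466). Glul, glutamine synthetase (0.5 ± 0.29), and Glud1, glutamate dehydrogenase (0.37 ± 0.19; log2 fold change ± SE), overlapped between the groups. Slc1a3, the glutamate and aspartate carrier known as GLAST, is named because DESeq2 called it. It was at 10.9, 9.76 and 8.46 TPM in DdblGata1 libraries, against 5.25, 4.89 and 4.47 TPM in wild-type libraries. Its log2 fold change was 0.91 ± 0.2 (SE; adjusted p = 0.384) by edgeR and 0.9 ± 0.22 (SE; adjusted p = 0.0106) by DESeq2.

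**Figure D4:**
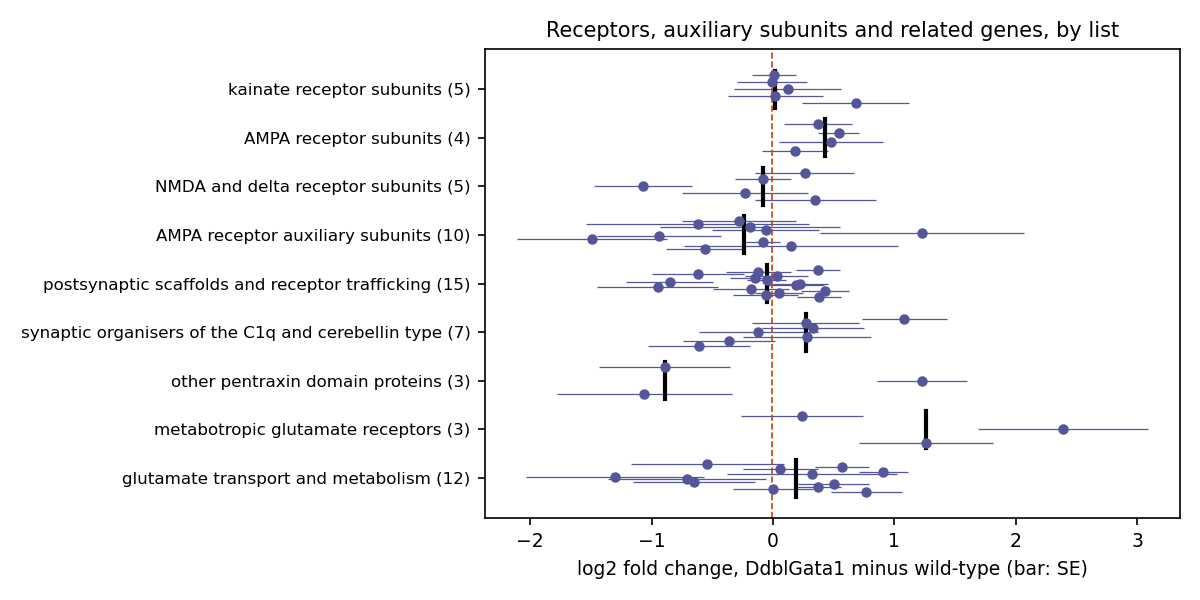
Fitted log2 fold change, DdblGata1 minus wild-type, of each measured gene of the 9 lists, with SE as a thin bar and the median of the list as a thick upright line. Numbers in brackets are the measured genes of a list. The kainate receptor subunits lie near 0 (median 0.02) and the AMPA receptor subunits to the right of it (median 0.43), and no gene passed edgeR's test.

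Genes with the profile nearest to Neto1 and Nptx2 were taken from 12835 genes with a mean log2 CPM of at least 1. The measure is the root mean square difference between log2 CPM profiles over the 6 libraries, each centred on the gene's own mean, so that 0 means the same profile. These genes share the libraries and the genotype difference with the member, and no function or control is read from them. For Neto1 the 5 nearest were Gm14387, which GENCODE M21 annotates as a pseudogene, Pex5l, a protein that traffics ion channels in neurons, and Ifi205, from a family of similar interferon-induced genes (0.57 each), then Zbtb16, a transcription factor (0.82), and Fgf10, a mesenchymal growth factor (0.88). Pex5l was at 9.31, 13.0 and 22.8 CPM in DdblGata1 libraries, against 1.19, 5.48 and 1.9 CPM in wild-type libraries. Fgf10 was at 56.9, 77.2 and 66.8 CPM in DdblGata1 libraries, against 11.6, 20.6 and 22.2 CPM in wild-type libraries. Reads of Gm14387 and Ifi205 may be divided with similar genes, so their levels are uncertain. The low level in wild-type replicate 1 was common to Neto1 and these 5 genes.

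For Nptx2 the nearest were closer. Kcnk3, a potassium channel, and Inka2, an inhibitor of the kinase PAK4, were at 0.11 each, Col26a1, a collagen, at 0.14, Nacad at 0.16 and Gys1, glycogen synthase of muscle, at 0.17. Kcnk3 was at 35.9, 35.0 and 28.3 CPM in DdblGata1 libraries, against 72.6, 96.6 and 50.0 CPM in wild-type libraries. As in Nptx2, the top library was wild-type replicate 3 and the bottom library DdblGata1 replicate 10. Kcnk3 and Col26a1 are on chromosome 5, as is Nptx2. Among the members themselves Neto2 and Nptxr were the most alike (0.21) and Neto1 and Nptx2 the least (2.28). Neto1 and Nptx2 stood out in this same comparison, with values on opposite sides of 0, so nothing is read from these distances.

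**Figure D5:**
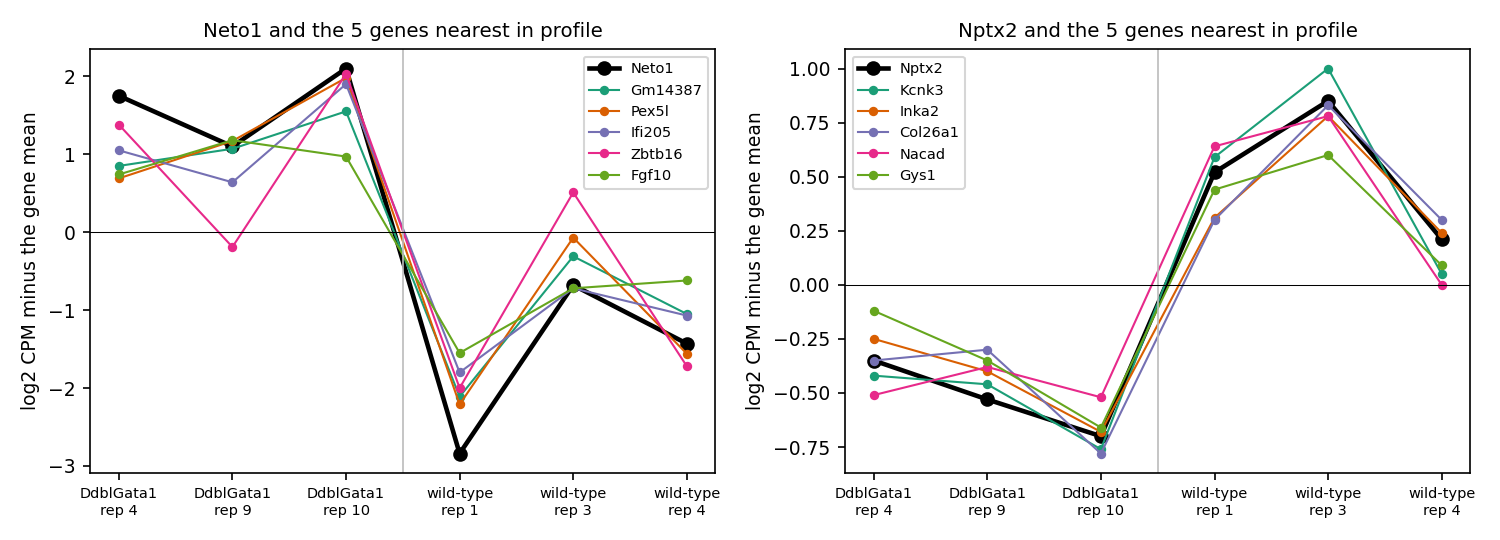
Log2 CPM minus the mean of the gene (prior count 2) in each library for Neto1 (left) and Nptx2 (right) in black, with the 5 genes nearest in profile in colour. The lines only join the values of a gene, since replicates have no order. DdblGata1 libraries are above the mean for Neto1 and below it for Nptx2, and each gene's lowest library differs: wild-type replicate 1 for Neto1 and DdblGata1 replicate 10 for Nptx2.

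Of the 10 measured genes next to the members on their chromosomes, 9 had overlapping groups and 1 had groups apart, against 16.3% of all genes apart. None passed edgeR's test, as did none of all 15238 genes, so these counts mark nothing particular to the neighbours. Cbln2, a secreted synaptic organiser 204 kb from Neto1, was at 0.953, 1.42 and 0.581 CPM in DdblGata1 libraries, against 0.762, 0.517 and 1.15 CPM in wild-type libraries (log2 fold change 0.28 ± 0.53 SE; edgeR adjusted p = 0.853). On its other side Timm21, a mitochondrial import protein 1443 kb away, had a log2 fold change of 0.22 ± 0.21 (SE; edgeR adjusted p = 0.711). Beside Nptx2, Bri3 at 99.1 kb (-0.17 ± 0.2) and Tmem130 at 178 kb (0.17 ± 0.86; log2 fold change ± SE) overlapped between the groups. Dnaja2 (-0.03 ± 0.14) and Itfg1 (0.00 ± 0.14) beside Neto2, and Endov (-0.48 ± 0.3) and Rptor (-0.14 ± 0.31; log2 fold change ± SE) beside Nptx1, overlapped too. Beside Nptxr, Cbx6 overlapped (0.04 ± 0.17 SE), and Dnal4 had groups apart at -0.26 ± 0.17 (SE; edgeR adjusted p = 0.581).

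Markers of other cell types that the sort could hold were set beside the members. All 12 enteric neuron markers were measured, none at 0, with 9 above 0 and 3 below in log2 fold change and none past edgeR's test. Their summed level was 213, 165 and 161 TPM in DdblGata1 libraries, against 77.5, 131 and 183 TPM in wild-type libraries. The groups overlapped in this sum, and the part of neurons in the Neto1 values was not tested. All 9 enteric glia markers were measured, at 219 to 309 TPM in DdblGata1 libraries and 138 to 350 TPM in wild-type libraries. The 7 endothelial markers had 3 values above 0 and 4 below, with a median log2 fold change of -0.08 and none past edgeR's test. Their summed level did not overlap, at 47.1 to 68.3 TPM in DdblGata1 libraries and 26.5 to 31.2 TPM in wild-type libraries. Tek was the largest part of that sum in every library, and the other markers summed without it overlapped between the groups. It was the 1 marker of the 7 with groups apart, against 16.3% of all genes. Its levels were 34.0, 36.9 and 59.8 TPM in DdblGata1 libraries and 11.1, 21 and 19.9 TPM in wild-type libraries. Pecam1, the gene of the CD31 used in the sort, was at 3.78 to 4.96 TPM in DdblGata1 libraries and 2.32 to 5.12 TPM in wild-type libraries. The part of endothelial RNA in the Neto1 values was not tested.

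Smooth muscle and pericyte markers are set beside Nptx2. All 9 smooth muscle markers were measured and all had values below 0, with none past edgeR's test and a summed level of 6045 to 9188 TPM in DdblGata1 libraries and 8550 to 13498 TPM in wild-type libraries, which overlap. The 6 pericyte markers, none past edgeR's test, summed to 602 to 646 TPM in DdblGata1 libraries and 759 to 974 TPM in wild-type libraries. These sums did not overlap. Of the 6 markers, 2 had values above 0 and 4 below. The groups were apart for the 4 below 0 (Rgs5, Cspg4, Kcnj8 and Abcc9) and for 1 of the 9 smooth muscle markers, against 16.3% of all genes. The part of these cells in the Nptx2 values was not tested. The summed levels of the 5 markers of interstitial cells of Cajal (114 to 226 TPM in DdblGata1, 195 to 255 TPM in wild-type) and of the 7 of mesothelium (228 to 368 TPM in DdblGata1, 234 to 325 TPM in wild-type) overlapped between the groups. Within each of these lists 1 marker had groups apart in CPM, Etv1 (-0.36 ± 0.18) and Wt1 (0.94 ± 0.21; log2 fold change ± SE), and neither passed edgeR's test. Of 7 leukocyte markers 5 were in the gene table. The summed level of all 7 was 19.3 to 25.7 TPM in DdblGata1 libraries and 18.2 to 46.0 TPM in wild-type libraries.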

How the data were processed

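Genotype labels placed the 6 bulk RNA-seq libraries in 2 groups. The libraries were stranded and made from total RNA, per the labels' protocols. Tools named in the submitters' processing notes, with no role or order, are kallisto, DESeq2, R 4.2.2 and bcl2fastq 2.2, and the builds are GRCm38.p6 and mm10. For 115270 transcripts in each library the authors deposited TPM, estimated counts and effective lengths (other values, in bases), with kallisto's column names per the file headers. The authors' gene table gives whole-number expected counts of 15238 genes, each with at least 10 counts in at least 3 libraries. Of its values 99.7% equalled length-scaled TPM within 1% plus 1 count. A deposited sheet lists for each library a size factor, which is a ratio, and 2 surrogate variables, each a score. No source used here says how these variables were made.

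Gene counts were tested in R 4.3.3 with edgeR 4.0.16, using TMM, filterByExpr (no gene removed), the robust quasi-likelihood test and p-values adjusted over all genes by Benjamini and Hochberg at 0.05, after a run on simulated data. Gene TPM are sums over transcripts assigned with GENCODE M21. Transcript usage was tested with diffSpliceDGE. The members, lists and tests were chosen with earlier results of these data known. Besides the members, the text names every measured receptor subunit, the 3 genes with the highest mean TPM of each other list, the 5 genes nearest in profile to Neto1 and to Nptx2, the nearest measured gene on either side of each member, and Gata1. The results of a few genes that this rule takes are not given here. Slc1a3, Il6 and the cell markers named singly were chosen after their values were seen. Alternatives were DESeq2 1.42.0, limma 3.58.1 (voom on counts, trend on log2(TPM + 1) and log2(TPM + 0.1)), other scalings and filters, unscaled transcript sums, the surrogate variables as covariates, for usage the F test and a filter at a 10% share, and leaving out each library.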

Additional observations from a re-analysis of the deposited data

How the results depend on the processing

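With edgeR 0 genes passed, and leaving out each library gave 0 to 1, the 1 being Il6 without DdblGata1 replicate 4 (log2 fold change 2.41, edgeR adjusted p = 0.043). DESeq2 called 214 genes and 1 partner gene, Slc1a3; the cause was not tested. Leaving out libraries gave 0 partner genes throughout. Over 15 alternatives each, the log2 fold change was 2.39 to 3.74 for Neto1, -0.13 to 0.13 for Neto2, -0.83 to -0.31 for Nptx1, -1.21 to -0.87 for Nptx2 and -0.12 to 0.35 for Nptxr. Neto1, Nptx1 and Nptx2 kept their sign in all 15, Neto2 in 12 and Nptxr in 13. List medians moved with the libraries and settings: that of the C1q and cerebellin type ranged from -0.09 to 0.53, of other pentraxins from -1.17 to 0.17, of metabotropic receptors from 0.51 to 1.67, of kainate subunits from -0.09 to 0.42, of AMPA subunits from 0.26 to 0.53, of NMDA and delta subunits from -0.23 to 0.22, of AMPA auxiliary subunits from -0.43 to 0.02, of scaffolds from -0.13 to 0.07 and of glutamate transport and metabolism from -0.14 to 0.36. The adjusted p for transcript usage was 1 for Neto2 and 0.882 to 1 for Nptxr, which could not be given under the 10% share filter. The 5 nearest genes of Neto1 and of Nptx2 were the same with a prior count of 0.5. No paired analysis was possible because the labels name no pairs between the groups, and the replicate numbers are not said to mark any. With 3 libraries per group and wild-type Neto1 at 22 to 94 counts, the size of its difference is known only roughly.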
